A study of Mus musculus with 7 samples.

Results

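Intercalated cells are the acid-base cells of the renal connecting tubule and collecting duct. They hold a vacuolar proton pump (V-ATPase) built of a V1 part, which splits ATP, and a membrane V0 part, which carries protons, and several subunits of this pump exist in a form that is common to all cells and a form enriched in kidney and a few other epithelia. Cytosolic carbonic anhydrase supplies the protons and bicarbonate, Rh glycoproteins let ammonia cross the membrane, and the forkhead factor Foxi1 switches on genes of the cell type. 9 genes of this machinery were described here, chosen by name with earlier results of these data known. They were Atp6v1b1, Atp6v1g3, Atp6v0a4, Atp6v0d2, Rhcg, Rhbg, Car2, Aqp6 and Foxi1. All 9 were found among the 53465 genes of the count table, and all 9 were among the 15774 genes that passed the filter on low counts.

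The RNA came from renal tissue of 7 MRL/lpr mice, a strain whose lpr mutation disrupts the death receptor Fas and which develops autoimmune nephritis resembling lupus. AZD1152 (barasertib) had been given to 4 of them and is a prodrug that yields an inhibitor of Aurora kinase B, and vehicle had been given to 3. Every mouse, the controls included, carried the MRL/lpr background, and no mice of a healthy strain were analysed here. The dose, the schedule and the age of the mice are not given in the sources used here. Each library came from 1 mouse and held between 14692113 and 17036862 counts. Genes encoded in mitochondria held 8.03% to 9.0% of counts with vehicle and 9.41% to 11.6% with AZD1152, with the highest share in AZD1152 replicate 2. The RNA is that of bulk tissue, so a different number of intercalated cells and a different amount of RNA in each of them cannot be told apart in any of the values below.

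The label was checked with 10 of the 20 other listed genes of intercalated cells. Slc26a4 (pendrin, the apical chloride-bicarbonate exchanger of type B cells) averaged 67.8 ± 12.4 CPM (a count relative to the TMM-scaled total of its library; SD, n = 3) with vehicle, and Slc4a9 (AE4) averaged 49.6 ± 3.80 CPM. Slc4a1 (AE1, the basolateral exchanger of type A cells, also made in red cells) averaged 42.5 ± 7.37 CPM. Kit, Insrr, Oxgr1, Hepacam2, Hmx2, Slc26a7 and Dmrt2 averaged between 5.30 and 35.7 CPM in the vehicle kidneys. Atp12a and Car15, listed but outside these 10, were lower, at 2.29 and 0.189 CPM. Genes of both type A and type B cells were therefore present in these libraries.

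Promoter windows, 250 bases before to 50 bases after the RefSeq start (GRCm38.p6), were held for 6 of the 9 genes. They were searched on both strands for 4 forkhead core heptamers that differ from each other at the last bases, because Foxi1 is a forkhead protein. These were TGTTTAC (in 3.65% of all windows), TGTTTAT (4.6%), TGTTTGC (5.07%) and TGTTTGT (6.61%). 2 of the 6 windows held a match, those of Atp6v1b1 and Atp6v1g3, and 17.7% of all 32851 windows of this length held at least 1. Both windows are printed 5′ to 3′ on the strand of the gene with the match in capitals, because they hold a match and both genes were called higher in the treated kidneys. The Atp6v1b1 window (chr6:83742767-83743066, plus strand) holds TGTTTAC. The Atp6v1g3 window (chr1:138273488-138273787, plus strand) holds TGTTTGT on the opposite strand, which therefore reads ACAAACA.
Atp6v1b1: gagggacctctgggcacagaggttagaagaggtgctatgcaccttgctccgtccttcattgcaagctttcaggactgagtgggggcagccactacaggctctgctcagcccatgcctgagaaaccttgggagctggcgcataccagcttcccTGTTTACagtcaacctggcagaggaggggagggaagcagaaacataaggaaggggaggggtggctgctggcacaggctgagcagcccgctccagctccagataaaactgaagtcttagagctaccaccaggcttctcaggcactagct
Atp6v1g3: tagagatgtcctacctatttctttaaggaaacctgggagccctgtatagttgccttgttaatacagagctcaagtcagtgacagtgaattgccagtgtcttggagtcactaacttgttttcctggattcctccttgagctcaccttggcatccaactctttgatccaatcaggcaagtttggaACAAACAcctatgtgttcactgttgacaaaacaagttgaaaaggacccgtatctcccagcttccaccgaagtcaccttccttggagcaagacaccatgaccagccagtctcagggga
The windows of Atp6v0a4, Rhcg, Foxi1 and Aqp6 held none of the 4 heptamers. A match is a description of the letters and not a binding site.

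The kidneys of mice given AZD1152 held more RNA of the pump subunits Atp6v1b1, Atp6v1g3 and Atp6v0a4 and of the ammonia channel Rhcg than those given vehicle. These 4 genes rose by 0.39 to 0.53 on the log2 scale at an adjusted p under 0.05 (edgeR quasi-likelihood test, Benjamini-Hochberg over all 15774 genes). Atp6v0d2, Car2, Foxi1, Aqp6 and Rhbg had positive estimates from 0.16 to 0.45 and did not pass the test. The median log2 fold change of the 9 genes was 0.42, beside 0.00 for all genes tested. 4 of 9 were called higher and 0 were called lower, beside 3.02% of all genes higher and 4.81% lower. Because the 9 genes were chosen with earlier results of these data known, such shares describe them and test nothing. At an unadjusted p under 0.05, 6 of the 9 were higher and 0 lower, beside 11.7% and 13.1% of all genes. DESeq2 called 6 higher and 0 lower, beside 6.14% and 7.33% of the 15533 genes to which it gave an adjusted p. Scaling by library totals lowered the median of the 9 genes to 0.27 and that of all genes to -0.15, with all 9 estimates still above 0. The 4 edgeR calls fell to 2 (Atp6v1b1 and Rhcg) under that scaling, where 232 of the 15774 genes were called higher and 1482 lower. Without vehicle replicate 1 or without vehicle replicate 3, 0 of the 9 genes were called. In TMM-scaled CPM, every AZD1152 library lay above every vehicle library in 5 of the 9 genes, which held for 11.2% of all genes tested. 0 of the 9 lay wholly below, which held for 11.6%. The TMM factors were 1.04 to 1.11 with vehicle and 0.921 to 0.972 with AZD1152, and the separation of Car2 rests on them.

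**Figure D1:**
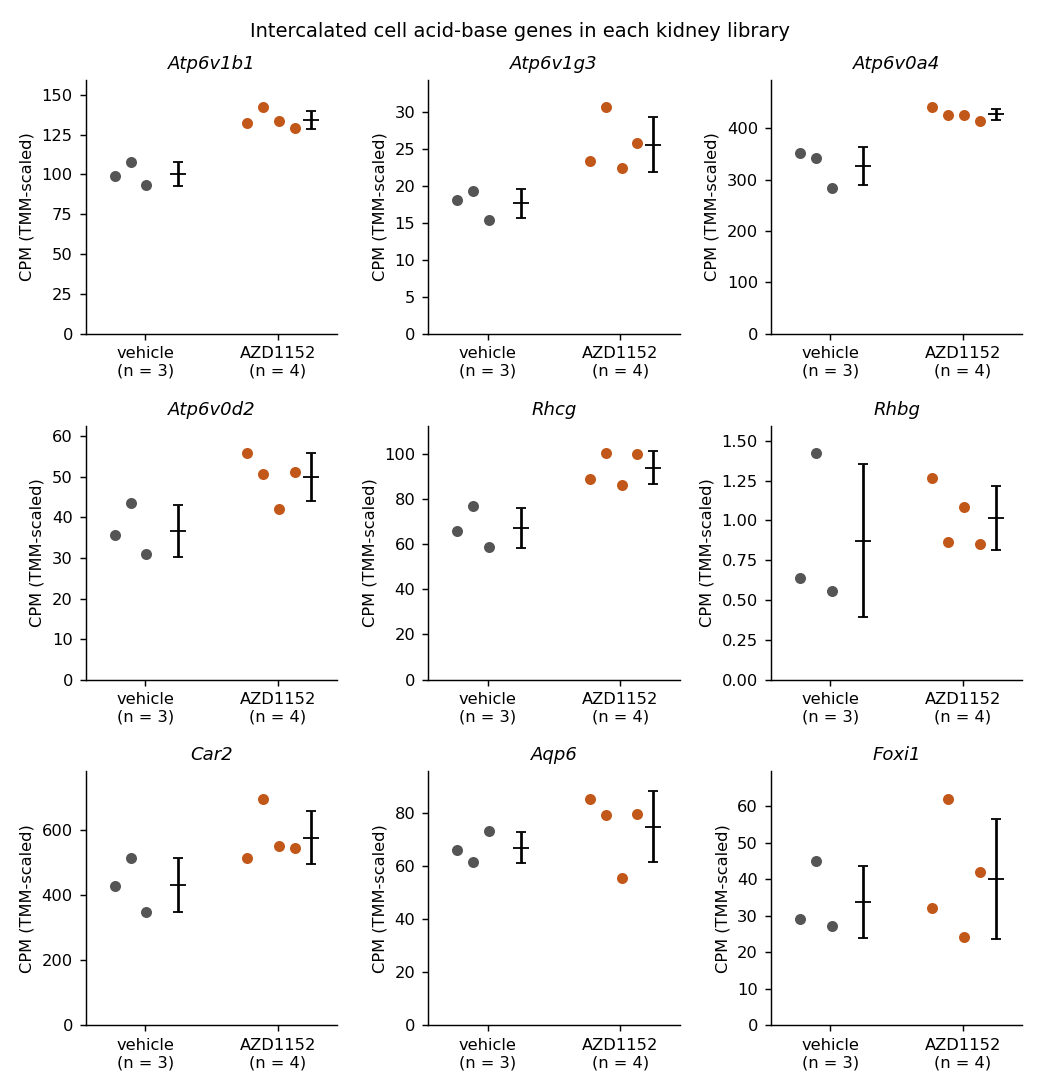
TMM-scaled CPM (vertical axes, each from 0) of the 9 genes in the 3 vehicle and 4 AZD1152 libraries. Each point is 1 mouse, in order of replicate number, and the bar beside it is the mean with the SD; treated and control points do not overlap for Atp6v1b1, Atp6v1g3, Atp6v0a4, Rhcg and Car2.

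Atp6v1b1 encodes the B1 subunit of the V1 part, whose loss in people causes renal tubular acidosis with deafness (ENSMUSG00000006269; GRCm38 chromosome 6, 83742990 to 83758855, plus strand). It stood at 99.1, 108.0 and 93.2 CPM in vehicle replicates 1 to 3 and at 132.0, 142.3, 133.4 and 129.1 CPM in AZD1152 replicates 1 to 4. The lowest treated library was thus above the highest control, and the spread within each group was small. The means were 100.1 ± 7.43 CPM (SD, n = 3) and 134.2 ± 5.70 CPM (SD, n = 4). On the log2 scale the rise was 0.42 ± 0.07 (SE), with an adjusted p of 0.0175 in edgeR. The call was lost without vehicle replicate 1 (adjusted p = 0.0566) or vehicle replicate 3 (0.0675) and held without any 1 of the other 5 libraries.

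Atp6v1g3 encodes the kidney form of the G subunit, part of a stalk that holds V1 to V0 (ENSMUSG00000026394; chromosome 1, 138273738 to 138289462, plus strand). It had 18.2, 19.4 and 15.5 CPM with vehicle and 23.4, 30.7, 22.5 and 25.8 CPM with AZD1152. All treated libraries were above all controls, and the maximum lay in AZD1152 replicate 2. Its rise of 0.53 ± 0.14 in log2 units (edgeR adjusted p = 0.0467) was the largest estimate among the 9 genes and the call nearest to the threshold. It was lost when any 1 of the 7 libraries was left out (adjusted p = 0.0519 to 0.173) and when libraries were scaled by their totals (0.0709).

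Atp6v0a4 encodes the a4 subunit of the V0 part, through which protons pass and which directs the pump to the apical membrane (ENSMUSG00000038600; chromosome 6, 38048483 to 38124586, minus strand). The vehicle libraries had 351.3, 342.4 and 284.1 CPM, and the AZD1152 libraries had 441.2, 425.2, 425.9 and 413.8 CPM. The 4 treated kidneys lay within a narrow band above all controls. The rise came to 0.39 ± 0.09 in log2 units (edgeR adjusted p = 0.0392). This call too was lost without any 1 of the 7 libraries (adjusted p = 0.0557 to 0.1001) and under scaling by totals (0.0753). The gene shares 259 exonic bases with D630045J12Rik on the same strand and 62 with Tmem213 on the opposite strand, of 4973 in all, and neither partner was called (log2 fold changes 0.24 and 0.09, edgeR adjusted p = 0.311 and 0.867).

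Atp6v0d2 encodes the d2 subunit of V0, which osteoclasts and macrophages also use (ENSMUSG00000028238; chromosome 4, 19876841 to 19922605, minus strand). Its values were 35.5, 43.5 and 31.0 CPM with vehicle and 56.0, 50.8, 42.0 and 51.2 CPM with AZD1152. AZD1152 replicate 3 lay below vehicle replicate 2, so the groups overlapped. The log2 fold change of 0.45 ± 0.13 did not pass the edgeR test (adjusted p = 0.073). It passed without vehicle replicate 2 (0.0371), without the filter on low counts (0.0397) and in DESeq2 (0.0259).

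Rhcg encodes the ammonia channel of the apical and basolateral membranes of collecting duct cells (ENSMUSG00000030549; chromosome 7, 79593363 to 79617657, minus strand). It measured 65.8, 76.7 and 58.9 CPM in the vehicle kidneys and 88.8, 100.5, 86.3 and 99.8 CPM in the AZD1152 kidneys. No treated library reached down to the controls. The means of 67.1 ± 8.96 and 93.8 ± 7.36 CPM stood 0.48 ± 0.10 log2 units apart (edgeR adjusted p = 0.0276). The call was lost without vehicle replicate 1 (adjusted p = 0.0859), vehicle replicate 3 (0.101), AZD1152 replicate 2 (0.0556) or AZD1152 replicate 4 (0.0714).

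Rhbg encodes the basolateral ammonia channel (ENSMUSG00000104445; chromosome 3, 88242874 to 88254709, minus strand). Only 10 to 25 counts per library were assigned to it. Of its 10 exons, 8 lie wholly inside exons of the same-strand gene Gm38392, and 61.4% of its 1937 exonic bases are shared. Gm38392 had 0 to 3 counts per library. The treatment of reads that match both genes is not given in the sources used here. The level of Rhbg is uncertain for that reason. In CPM it was 0.640, 1.43 and 0.554 with vehicle and 1.27, 0.863, 1.08 and 0.849 with AZD1152, and the highest library was a control. The log2 fold change was 0.22 with a 95% interval from -0.65 to 1.10 (edgeR adjusted p = 0.773), and it turned to -0.02 without vehicle replicate 3.

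Car2 encodes cytosolic carbonic anhydrase II, which is also present in proximal tubule, osteoclasts and red cells (ENSMUSG00000027562; chromosome 3, 14886273 to 14900770, plus strand). The controls had 429.0, 513.0 and 347.8 CPM. The treated libraries had 513.5, 696.6, 552.0 and 543.9 CPM, so the lowest of them exceeded the highest control by less than 1 CPM. This order rests on the TMM factors. Before scaling, vehicle replicate 2 had 8996 counts of 16930859 and AZD1152 replicate 1 had 8499 of 17036862, so the groups overlapped. The log2 fold change was 0.42 ± 0.15, close to that of Atp6v1b1 but with an SE of 0.15 in place of 0.07, and the gene did not pass the edgeR test (adjusted p = 0.124; 0.0477 in DESeq2).

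Aqp6 encodes an aquaporin that lies with the proton pump in vesicles of type A intercalated cells and passes anions (ENSMUSG00000043144; chromosome 15, 99601400 to 99605477, plus strand). It had 66.1, 61.5 and 73.0 CPM with vehicle and 85.3, 79.0, 55.4 and 79.4 CPM with AZD1152. AZD1152 replicate 3 was the lowest of all 7 libraries while the other treated libraries were the highest. The log2 fold change was 0.16 with a 95% interval from -0.16 to 0.48 (edgeR adjusted p = 0.528).

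Foxi1, the transcription factor of the group (ENSMUSG00000047861; chromosome 11, 34204338 to 34208089, minus strand), varied most between mice among the 8 genes other than Rhbg. Its values were 29.0, 45.1 and 27.3 CPM with vehicle and 32.0, 62.1, 24.1 and 41.9 CPM with AZD1152. The treated group held both the lowest and the highest library. The log2 fold change was 0.24 with a 95% interval from -0.44 to 0.93 (edgeR adjusted p = 0.675) and -0.06 without AZD1152 replicate 2.

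**Figure D2:**
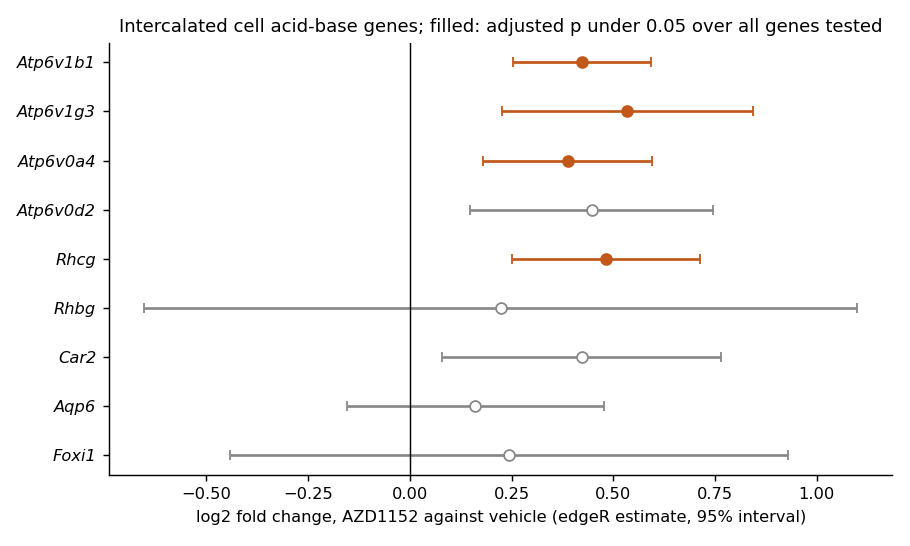
Log2 fold change of AZD1152 against vehicle for each of the 9 genes, with the 95% interval of the edgeR estimate, from 7 libraries. The 4 filled points had an adjusted p under 0.05 over all genes tested, and the intervals of Rhbg, Aqp6 and Foxi1 cross 0.

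Levels of different genes were compared as CPM per kilobase of exon. Car2 was the highest with 178 ± 34.1 per kilobase in vehicle and 238 ± 33.8 in AZD1152 kidneys (SD), and Atp6v0a4 followed with 65.5 ± 7.34 and 85.8 ± 2.26. Each of them exceeded the next gene in all 7 libraries. Rhcg, Aqp6 and Atp6v1b1 formed a middle group at 30.1, 27.6 and 22.8 per kilobase with vehicle, with neighbours in the stated order in 6 of 7 libraries. Atp6v0d2 and Foxi1 stood at 13.5 and 14.3 with vehicle and were in either order, Atp6v0d2 being the higher in 4 of 7 libraries. Atp6v1g3 had 9.36 and Rhbg 0.451 per kilobase with vehicle, the latter with the doubt on its counting given above.

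The 9 genes did not follow each other equally across the 7 libraries. Over the 36 pairs, Pearson's r of log2 CPM ran from -0.15 to 0.96 with a median of 0.61, from the same 7 libraries and thus with shared depth and scaling. These values pool 2 groups whose means differ, and after the group means were removed they ran from -0.31 to 0.96. Atp6v1g3 with Rhcg had 0.96, and 0.86 with the group means removed, and Atp6v1b1 with Rhcg had 0.95 and 0.77. Atp6v1b1 with Car2 had 0.90 and, with the group means removed, the highest value of the 36 pairs (0.96). Aqp6 had r from -0.15 to 0.48 in its 8 pairs, and from -0.31 to 0.37 with the group means removed. Foxi1 correlated with Atp6v1g3 at 0.65 over the 7 libraries and at 0.93 after the group means were removed, and with Atp6v0a4 at 0.26 and 0.16. Vehicle replicate 2 and AZD1152 replicate 2 had the highest Foxi1, Car2, Atp6v1b1, Atp6v1g3 and Rhcg of their groups. AZD1152 replicate 2 also had the highest erythroid sum (1248 CPM, beside 308 to 704 CPM in the other 6 libraries). Its part in these values was not tested.

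The genes outside the group whose log2 CPM was most like the mean z-score of the 9 genes were Cdh16, P4hb, Dap3, Etfdh and Clcc1, with r from 0.996 to 0.989 over 7 libraries, out of 9792 genes whose mean reached 10 CPM. Cdh16 encodes kidney-specific cadherin of tubule epithelium. It averaged 968 ± 67.7 CPM with vehicle and 1146 ± 66.3 CPM with AZD1152, a log2 difference of 0.24 ± 0.09 that was not called (edgeR adjusted p = 0.145). The other 4 were not called either (0.15 to 0.29, edgeR adjusted p = 0.0883 to 0.312). With so many candidates and 7 libraries, values of r near 1 describe these libraries and test nothing.

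Since 4 of the 9 genes encode kidney forms of pump subunits, each was set against the common form of the same subunit within the same library, where the scaling between libraries drops out. The a subunit showed the largest difference. Atp6v0a4 stood at 6.95, 7.09 and 5.09 times the level per kilobase of Atp6v0a1 with vehicle and at 8.62, 9.10, 10.1 and 7.52 times with AZD1152. The log2 ratio was higher by 0.48 ± 0.18 (SE) in the treated kidneys, and the groups did not overlap (exact permutation test, two-sided p = 0.0571, 0.114 after adjustment over 4 ratios). The two-sided p was taken as the smaller tail doubled. By that rule 0.0571 is the smallest p that 35 splits of 7 libraries allow, so no ratio could pass 0.05 in this test. Atp6v1g3 was 0.0482, 0.0520 and 0.0530 of Atp6v1g1 with vehicle and 0.0682, 0.0642, 0.0543 and 0.0667 with AZD1152, higher by 0.31 ± 0.09 on the log2 scale without overlap (exact permutation p = 0.0571, adjusted 0.114). Here AZD1152 replicate 3 lay only just above the highest control.

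For the B and d subunits the groups overlapped. Whether the 4 ratios differed from each other was not tested. Atp6v1b1 stood at 0.306, 0.311 and 0.360 of Atp6v1b2 with vehicle and at 0.340, 0.310, 0.326 and 0.326 with AZD1152. The log2 ratio differed by 0.00 ± 0.08 (exact permutation p = 0.971). Atp6v1b2 itself was estimated 0.42 ± 0.12 log2 units higher (edgeR adjusted p = 0.062; 0.00898 in DESeq2). Atp6v0d2 ranged from 0.215 to 0.267 of Atp6v0d1 with vehicle and from 0.222 to 0.346 with AZD1152, a difference of 0.22 ± 0.16 with overlapping groups (exact permutation p = 0.286, adjusted 0.381). Leaving out single libraries moved the ratio difference of Atp6v0d2 between 0.11 and 0.32, lowest without AZD1152 replicate 1.

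**Figure D3:**
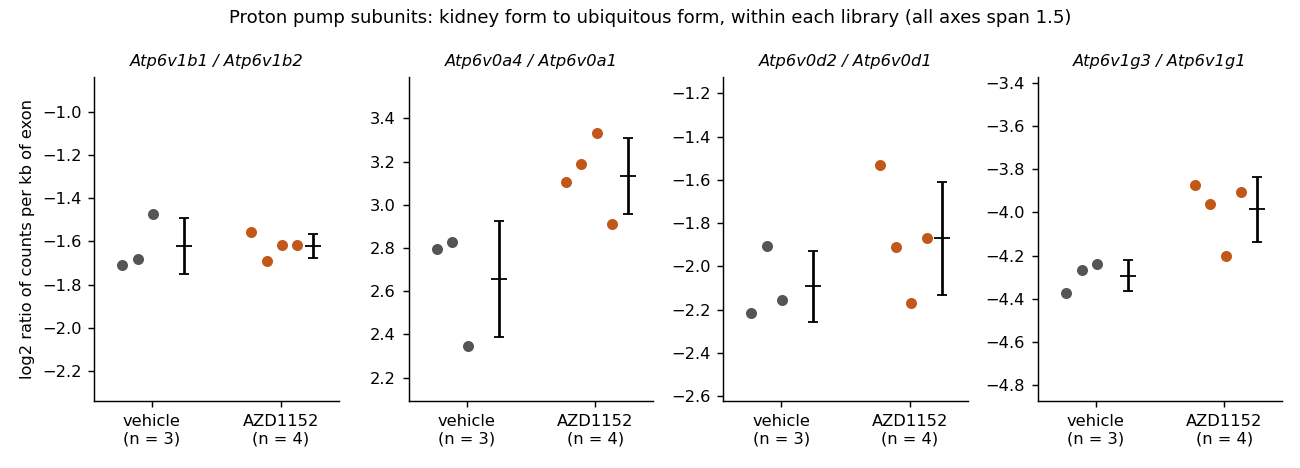
Log2 ratio of counts per kilobase of exon of a kidney form to a common form of the same pump subunit, within each of 3 vehicle and 4 AZD1152 libraries, with the mean and SD at the side. Each vertical axis spans 1.5 log2 units; the groups are apart for Atp6v0a4 and Atp6v1g3 and overlap for Atp6v1b1 and Atp6v0d2.

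Of the other 20 pump subunits, all of them tested, 15 had estimates above 0 and 5 below, and the median was 0.21 in log2 units. Under scaling by library totals 14 were above 0 and the median was 0.06. In edgeR 0 were called higher, beside 3.02% of all genes. At an unadjusted p under 0.05, 8 were higher, beside 11.7% of all genes, and DESeq2 called 4 higher, beside 6.14%. Beside Atp6v1b2, those with the smallest p were Atp6v1c2, a C subunit form of kidney and lung (0.53 ± 0.16, edgeR adjusted p = 0.0807; 50 exonic bases shared with Pdia6), and Atp6v1f (0.25 ± 0.08, adjusted p = 0.0968). In edgeR 1 of the 20 was called lower, beside 4.81% of all genes. It was Tcirg1, the a3 form of osteoclast and macrophage lysosomes. Tcirg1 went from 51.0, 45.9 and 54.3 CPM with vehicle to 35.6, 20.8, 32.3 and 35.6 CPM with AZD1152. Every treated library was below every control, and the estimate was -0.70 ± 0.17 in log2 units (edgeR adjusted p = 0.0422). That call was lost without 5 of the 7 libraries, adjusted p reaching 0.157 without vehicle replicate 3, and held without AZD1152 replicate 1 or 2. Among the 4 forms of the a subunit, the log2 fold changes were thus 0.39 for Atp6v0a4, -0.08 for Atp6v0a1, 0.00 for Atp6v0a2 and -0.70 for Tcirg1.

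The remaining genes of intercalated cells were mixed. Of 20 listed genes 19 were tested, 3 rose and 1 fell, beside 3.02% and 4.81% of all genes tested. The median log2 fold change was 0.19, with 14 estimates above 0 and 5 below. At an unadjusted p under 0.05, 8 were higher and 2 lower, beside 11.7% and 13.1% of all genes tested. The 2 lower were Kcnma1 (-0.62 ± 0.27, edgeR adjusted p = 0.198) and P2ry14. Slc26a4 rose from 63.6, 81.7 and 57.9 CPM to 103.4, 98.2, 86.4 and 97.4 CPM, with all treated libraries above all controls (0.51 ± 0.12, edgeR adjusted p = 0.0386). Oxgr1, the 2-oxoglutarate receptor of type B cells, rose by 0.69 ± 0.15 (adjusted p = 0.0326), and Hepacam2, an adhesion protein enriched in intercalated cells, by 0.58 ± 0.13 (adjusted p = 0.0313). Slc4a1 went from 39.9, 50.8 and 36.7 CPM to 53.0, 61.1, 44.7 and 56.5 CPM. Its groups overlapped, and the log2 fold change of 0.34 ± 0.14 did not pass (edgeR adjusted p = 0.157). Whether pendrin and AE1 changed by different amounts was not tested. Atp4a, a proton-potassium pump subunit, had 0.60 ± 0.21 and the homeobox factor Hmx2 0.48 ± 0.19 (edgeR adjusted p = 0.108 and 0.152). P2ry14, a receptor for UDP-sugars that immune cells also carry, fell from 7.10, 7.13 and 7.32 CPM to 4.59, 2.39, 4.02 and 4.32 CPM (-0.91 ± 0.22, adjusted p = 0.0412). The calls of Slc26a4, Hepacam2 and P2ry14 were lost without 5 of the 7 libraries each and that of Oxgr1 without 4, with edgeR adjusted p up to 0.133, 0.124, 0.133 and 0.0911. Under scaling by library totals, 10 of the 19 had positive estimates in place of 14, and the median was 0.04. In that fit 1 was called higher and 1 lower, beside 232 and 1482 of the 15774 genes tested.

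Among the other carbonic anhydrases, 2 of 11 tested rose and 0 fell, beside 3.02% and 4.81% of all genes tested. The median was 0.00 (-0.15 under scaling by library totals). At an unadjusted p under 0.05, 3 were higher and 0 lower, beside 11.7% and 13.1% of all genes. DESeq2 also called 2 higher and 0 lower, beside 6.14% and 7.33%. Both that rose are membrane-bound enzymes of the proximal tubule. Car4 went from 90.2, 86.7 and 75.9 CPM to 135.2, 129.1, 140.2 and 121.9 CPM (0.64 ± 0.08, edgeR adjusted p = 0.00951). Car14, which shares 445 exonic bases with Aph1a on the opposite strand, rose by 0.85 ± 0.15 (adjusted p = 0.0183). Both calls held without any 1 of the 7 libraries, unlike those of the 4 intercalated cell genes. Car12, a basolateral enzyme of the collecting duct, had 0.47 ± 0.20 with overlapping groups (adjusted p = 0.183). Car8 and Car5b had 0.31 ± 0.17 and -0.23 ± 0.16 (adjusted p = 0.301 and 0.405).

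In the list of acid-base and ammonia genes of the proximal tubule, 3 of 10 genes rose and 1 fell, beside 3.02% and 4.81% of all genes tested. The list also holds Slc34a1, a phosphate carrier. The median was 0.30, and 0.15 under scaling by library totals. With that scaling 3 rose and 3 fell, beside 232 and 1482 of the 15774 genes tested. Car4 and Car14 are in this list too. Slc34a1, the sodium-phosphate cotransporter, with 545 exonic bases shared with Pfn3 on the opposite strand, rose from 3206, 3685 and 2421 CPM to 4591, 5379, 5004 and 4848 CPM (0.67 ± 0.15, edgeR adjusted p = 0.033), and this call was lost without 5 of 7 libraries (adjusted p up to 0.0923). Slc38a3, the glutamine carrier that feeds ammonia formation, fell from 39.5, 38.3 and 43.8 CPM to 26.2, 20.8, 23.8 and 24.3 CPM (-0.77 ± 0.10, adjusted p = 0.00951). Its call held without any 1 of the 7 libraries. Pck1, Slc9a8 and Slc4a4 had 0.69 ± 0.20, -0.49 ± 0.16 and 0.40 ± 0.14 and did not pass (edgeR adjusted p = 0.0707, 0.0883 and 0.121).

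Principal cells share the collecting duct with intercalated cells. Of 11 tested principal cell genes 2 rose, beside 3.02% of all genes tested. The median log2 fold change was 0.14, beside 0.42 for the 9 intercalated cell genes, a difference that was not tested. Scnn1g, a subunit of the epithelial sodium channel, rose from 39.0, 46.3 and 44.1 CPM to 57.5, 51.2, 60.7 and 64.2 CPM (0.44 ± 0.10, edgeR adjusted p = 0.0311). Hsd11b2, which shields the mineralocorticoid receptor from glucocorticoids, rose by 0.29 ± 0.07 (adjusted p = 0.0455). Leaving out 1 library ended the first call in 5 of 7 cases and the second in 6 (highest edgeR adjusted p 0.101 and 0.142), and under scaling by totals 0 of the 11 were called, 5 were above 0 and the median was -0.02. Aqp3, Scnn1b and Fxyd4 had 0.17 ± 0.07, 0.23 ± 0.12 and -0.17 ± 0.12 (edgeR adjusted p = 0.153, 0.262 and 0.414). Aqp2 had -0.25 ± 0.25 with overlapping groups (edgeR adjusted p = 0.587). With TMM scaling, 7 of the 11 estimates were above 0 and 4 below. The summed CPM of the list ran from 1151 to 1222 with vehicle and from 1006 to 1462 with AZD1152, lowest in AZD1152 replicate 2, where the sum of the 9 intercalated cell genes was the highest of all libraries (1588 CPM).

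**Figure D4:**
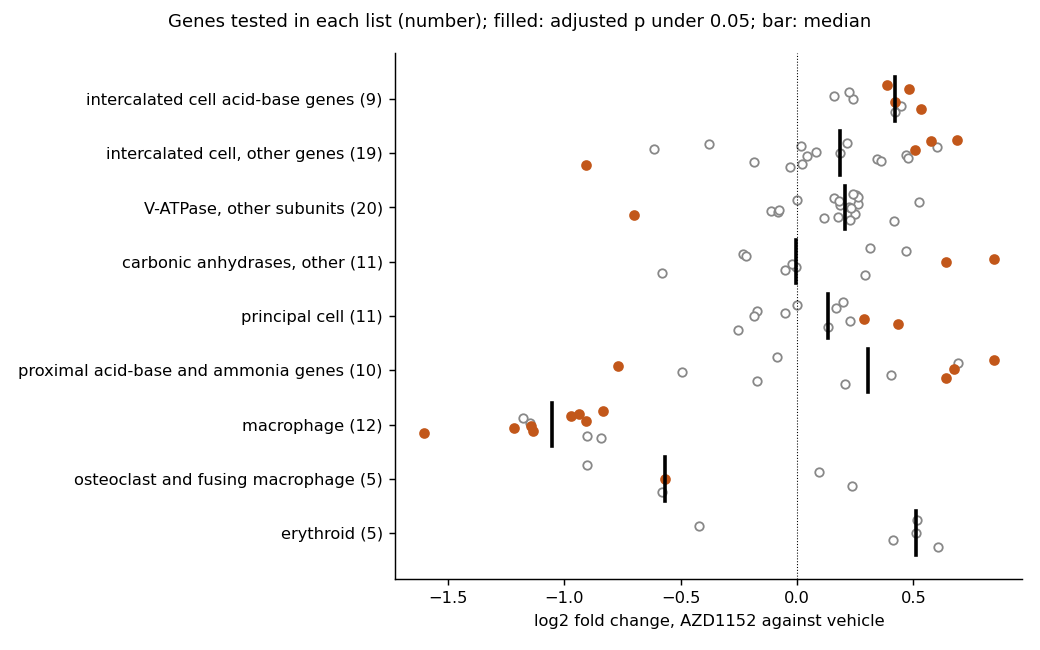
Log2 fold change of AZD1152 against vehicle for every tested gene of the 9 lists, 1 point a gene, with the median of each list as a bar (0.42 for the intercalated cell acid-base genes). Filled points had an adjusted p under 0.05 over all genes tested; the vertical spread within a list only separates the points.

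Other cells that use some of these genes were measured beside them. All 12 macrophage markers had negative estimates and 8 fell, beside 4.81% of all genes tested. Their summed CPM went from 956 to 1314 with vehicle to 444 to 685 with AZD1152. Fcgr1, an Fc receptor, fell by 1.60 ± 0.24 in log2 units, Lyz2 by 1.13 ± 0.21 and Aif1 by 1.22 ± 0.23, with edgeR adjusted p of 0.0111, 0.0191 and 0.0202. The call of Lyz2 was lost without vehicle replicate 3 (0.0524). In the list of osteoclasts and fusing macrophages, 5 of 8 genes were tested and 1 was called lower, beside 4.81% of all genes tested. At an unadjusted p under 0.05, 3 of the 5 were lower, beside 13.1%. The called gene was Nfatc1, a transcription factor (-0.57 ± 0.14, edgeR adjusted p = 0.0467). Its call was lost without 6 of 7 libraries (adjusted p up to 0.112). Dcstamp, Ocstamp and Oscar, which define such cells, averaged at most 0.166 CPM in either group, under the 0.204 CPM that 3 counts give in the shallowest library. Ctsk, Mmp9 and Acp5 had -0.58 ± 0.23, -0.90 ± 0.39 and 0.10 ± 0.11 (edgeR adjusted p = 0.164, 0.194 and 0.649). Of the erythroid markers, which bear on Car2 and Slc4a1, 5 of 8 in the table were tested and 0 were called by edgeR or DESeq2, with 0 at an unadjusted p under 0.05. Hbb-bs, Hba-a1 and Epb42 had 0.61 ± 0.40, 0.51 ± 0.40 and -0.42 ± 0.24 (edgeR adjusted p = 0.403, 0.475 and 0.311). The erythroid sum ran from 308 to 604 CPM with vehicle and from 333 to 1248 CPM with AZD1152. The part of macrophages, red cells or tubule share in the values of the 9 genes was not tested.

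**Figure D5:**
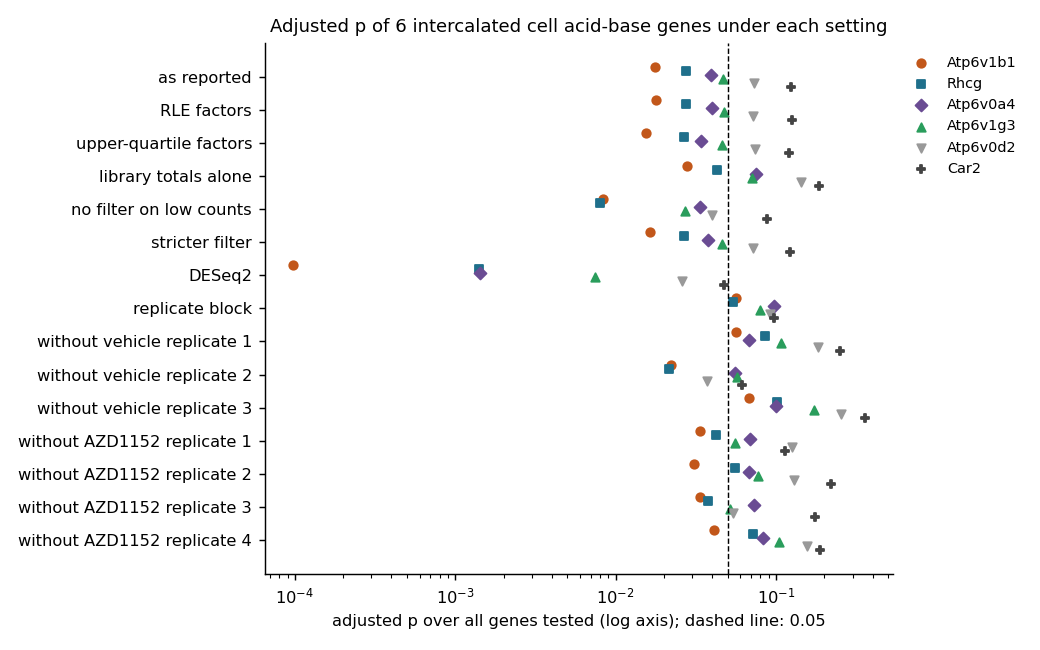
Adjusted p over all genes tested (horizontal log axis) of 6 of the 9 genes under each processing alternative and without each library in turn. Without vehicle replicate 1 or vehicle replicate 3, and with the replicate number as a block, every point lies to the right of 0.05.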

How the data were processed

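The authors deposited 1 table of raw counts, whole numbers per gene and library, not normalized. Per the labels' protocols, oligo(dT)-selected RNA was made into libraries with a TruSeq kit and PCR. Per the submitters' processing notes, HISAT2 2.0.5 and GRCm38 were used, and CASAVA, DESeq2 and DESeq are also named. The counter and its strand setting are not given in the sources used here. Groups came from the sample titles, and nothing in the labels gives a batch. Of 53465 genes, 53274 had a name in GENCODE mouse release 21, which gave coordinates and exon lengths.

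Genes passing filterByExpr were compared by a two-sided quasi-likelihood test of edgeR 4.0.16 under R 4.3.3, with TMM factors, group as the single term, all 7 libraries and an adjusted p threshold of 0.05. SE is the size of the log2 fold change over the square root of F. Counts were simulated over 15774 genes for this comparison in 3 runs, each with 200 changed genes drawn at any level. The test recovered 12.5% of 1.41-fold changes, 58.3% at 2-fold and 96.3% at 4-fold, and 6.83% of its calls were false. A change of the size seen here was thus often missed in these runs. In the data 476 genes were called higher and 759 lower, more than were changed in a run, so recovery there may differ. 3 counts correspond to 0.176 to 0.204 CPM, counting error only.

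The 9 genes and the 8 other lists were chosen with earlier results of these data known. 109 of 110 list genes matched the table. Named were all 9 genes and, of each other list, up to 4 called genes and up to 3 more by smallest p. Slc4a1, Slc26a4, Aqp2, Kcnma1, the genes of the label check, the subunit paralogs and the 5 genes most like the group were also named. Alternatives were RLE factors, upper-quartile factors, library totals, other filters, DESeq2 1.42.0, a replicate block and leaving out each library.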

Additional observations from a re-analysis of the deposited data

How the results depend on the processing

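All 9 genes kept positive estimates under RLE factors, upper-quartile factors, library totals, both other filters, DESeq2 and the replicate block. RLE and upper-quartile factors and the stricter filter kept the 4 calls. Scaling by library totals shifted the median over all genes by -0.15 in log2 units, left 2 of the 4 calls (Atp6v1b1 and Rhcg) and gave 232 higher and 1482 lower genes in place of 476 and 759, so that 13.5% of calls in place of 38.5% were higher. DESeq2 gave 954 higher and 1138 lower genes. With the replicate number as a replicate block, 63 genes were higher and 146 lower, and 0 of the 9 genes were called (edgeR adjusted p = 0.0538 to 0.0976 for the 4). That fit left 2 residual degrees of freedom, and AZD1152 replicate 4 was alone in its block. The median estimate of the 9 genes was 0.44 with the block and 0.42 without it. The labels do not say whether the numbers pair the mice. Deviations from the group mean correlated at -0.29, 0.21 and -0.12 between same-numbered libraries, and vehicle replicate 1 correlated best with AZD1152 replicate 3. Such deviations sum to 0 within each small group, so these values cannot decide whether mice were paired. Without single libraries, 0 to 3 of the 9 genes were called higher, 60 to 475 genes of the table were higher and 163 to 619 lower, the fewest without vehicle replicate 3. Leaving out single libraries gave log2 fold changes from -0.0586 to 0.507 for Foxi1, from -0.0202 to 0.767 for Rhbg and from -0.0265 to 0.207 for Acp5, and differences from -0.0432 to 0.0750 for the log2 ratio of Atp6v1b1 to Atp6v1b2. By totals, Acp5 and P4hb turned to -0.0482 and -0.00266. The cause of these changes was not tested. Rhbg rests on 10 to 25 counts per library. No value of the 9 genes or 4 ratios in the 4 AZD1152 libraries stood apart by Dixon's criterion, and vehicle groups of 3 were not examined.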
